A study of Aspergillus niger with 11 samples.

Results

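Transcripts of 10 glycolytic genes of Aspergillus niger were followed through an oxygen-limited fermentation. The genes were taken by locus from a fixed list that runs from hexokinase to pyruvate kinase, and all 10 were found among the 10445 genes of the files. Glycolysis splits a hexose into pyruvate and yields ATP without oxygen. Its upper part spends ATP to phosphorylate the sugar and cleave it into triose phosphates, and its lower part recovers ATP and reduced NADH on the way to pyruvate. In A. niger the pathway supplies the carbon for citrate and other overflow acids, and pyruvate kinase catalyses its last step.

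The upper part comprised 6 genes. These were hxkA (An02g14380, hexokinase) and glkA (An12g08610, glucokinase), which phosphorylate glucose, pgiA (An16g05420, glucose-6-phosphate isomerase), pfkA (An18g01670, 6-phosphofructokinase), fbaA (An02g07470, fructose-bisphosphate aldolase) and tpiA (An14g04920, triose-phosphate isomerase). The lower part comprised 4 genes, gpdA (An16g01830, glyceraldehyde-3-phosphate dehydrogenase), pgkA (An08g02260, phosphoglycerate kinase), enolase (An18g06250) and pkiA (An07g08990, pyruvate kinase). A RefSeq gene table carries a symbol for 6 of the 10 loci (hxk, GlkA, pfkA, tpiA, gpdA and pkiA). The names of the other 4 loci came with the list and not from that table. Phosphoglycerate mutase, which acts between phosphoglycerate kinase and enolase, was not analysed here.

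All libraries came from strain DS03043, grown as a fed-batch culture in a 5 L fermenter at 34 °C and pH 4.5 with stirring at 375 rpm, under a treatment that the labels call an oxygen limitation fermentation. The exponential phase (3 libraries), the early oxygen-limited or transitional phase (3), the middle limited phase (3) and the late limited phase (2) were sampled. The sampling times 18, 24, 42 and 66 h are listed for the series as a whole and were assigned to the phases in order of time. The labels do not state whether libraries of a phase came from separate fermenters, so p-values measure the spread between these samples alone, and that spread may be technical. No culture without the limitation was analysed, and time, growth phase and oxygen supply cannot be told apart.

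The deposited values are FPKM, that is, fragment counts scaled by transcript length and by the mapped total of the library, so levels of different genes can be compared. They summed to between 968822 (66 h replicate 1) and 1100826 (24 h replicate 2) per library, with 5399 to 5959 genes above 0. For 9 of the 10 glycolytic genes, all 11 values were whole multiples of what 1 read is worth, to within 0.05 read, and the reads behind each value could be recovered. No such step was found for pkiA. The relative depth of the libraries ranged from 1.00 (24 h replicate 3) to 1.59 (66 h replicate 1), and the reads recovered over 5745 genes numbered 16826 to 24307 per library. Depth was at most 1.21 at 18 and 24 h and at least 1.38 at 42 and 66 h. The summed FPKM was at least 1054732 at 18 and 24 h and at most 983397 at 42 and 66 h. A split of the earlier from the later times thus coincides with a split in depth and in summed FPKM. These numbers describe the deposited values, and the sources used here do not give whether all sequenced reads entered them.

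pkiA was the most abundant of the 10 transcripts, and it was the single gene of the pathway whose level differed between the phases in the test across all genes. It was lower at 24 h than at 18 h, higher at 42 h than at 24 h, and at 42 and 66 h its means lay between those of 24 and 18 h. gpdA, the next in abundance, averaged between 382 and 439.6 FPKM in every phase. For the other 8 genes no difference passed the test, and most rested on few reads.

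The highest levels were those of pkiA and gpdA, both of the lower part, and below them genes of both parts were mixed. Over the 11 libraries pkiA averaged 1364 ± 498 FPKM (SD), gpdA 416 ± 62.6, pgiA 189.7 ± 53.8 and enolase 157 ± 75.6. fbaA averaged 72.8 ± 31.0 FPKM, pgkA 53.4 ± 22.0, tpiA 41.7 ± 46.8, pfkA 36.6 ± 18.6, hxkA 22.8 ± 12.1 and glkA 15.7 ± 14.9. pkiA exceeded gpdA, and gpdA exceeded pgiA, in 11 of 11 libraries with ranges that did not overlap. Every later pair of neighbours in this order overlapped. pgiA was above enolase in 8 of 11 libraries, enolase above fbaA in 8, fbaA above pgkA in 7, pgkA above tpiA in 7, tpiA above pfkA in 5, pfkA above hxkA in 8 and hxkA above glkA in 8. Among all genes of a library, pkiA ranked between 70 and 273 and gpdA between 320 and 529, whereas glkA ranked between 2432 and 5960.

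**Figure D1:**
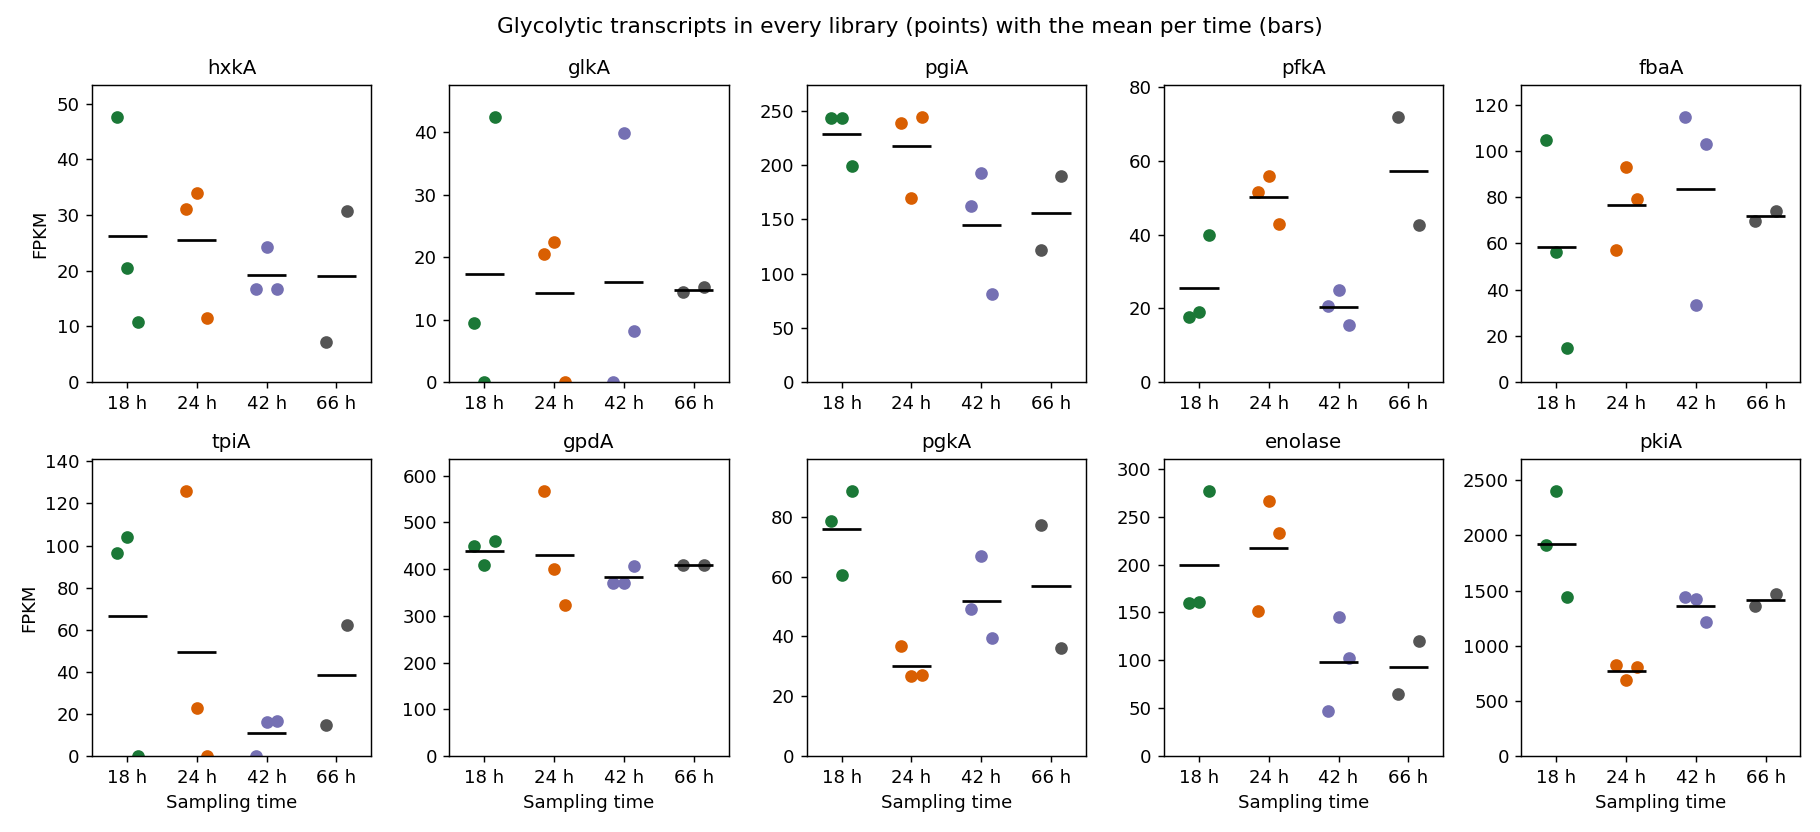
FPKM of each of the 10 glycolytic genes (vertical axes, linear from 0, each panel with its own scale) against sampling time, with 1 point per library and a bar at the mean of each time (n = 3, 3, 3 and 2). The 3 pkiA points at 24 h lie below its points at all other times, while those of hxkA, glkA, fbaA and tpiA overlap in all 5 comparisons of the times.

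The genes that phosphorylate glucose had the lowest means over the 11 libraries, though their ranges overlapped with those of pfkA and tpiA, and at 42 h tpiA averaged less (11.1 FPKM). hxkA was listed at 47.6, 20.45 and 10.7 FPKM at 18 h, 31.2, 33.9 and 11.5 at 24 h, 16.7, 24.2 and 16.7 at 42 h, and 7.26 and 30.7 at 66 h. These values stood for 1 to 5 reads each and overlapped in all comparisons. glkA had 9.42, 0 and 42.5 FPKM at 18 h, 20.55, 22.4 and 0 at 24 h, 0, 39.9 and 8.24 at 42 h, and 14.4 and 15.2 at 66 h, from 0 to 5 reads each. In its 3 libraries without a read, a count of 0 allows a level of up to 24.7 to 34.2 FPKM, counting error only, which is above its mean level. For both genes the 95% interval of the log2 fold change at 24 h against 18 h included changes of several fold in either direction, -1.74 to 1.87 for hxkA and -3.99 to 4.09 for glkA.

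pgiA, which interconverts glucose and fructose 6-phosphate, was the most abundant transcript of the upper part. It stood at 243.9, 243.65 and 199 FPKM at 18 h, 238.5, 169.7 and 245 at 24 h, 162, 192 and 80.9 at 42 h, and 122 and 189.6 at 66 h, from 11 to 29 reads. In FPKM, the 3 libraries of 42 h and both of 66 h lay below all of 18 h. As a share of the summed FPKM, 42 h replicate 2 and 66 h replicate 2 (0.0196% each) were above 18 h replicate 3 (0.0182%). The fold changes did not pass the test. They were -0.74 in log2 at 42 h against 18 h (SE 0.36, adjusted p = 0.314 by limma with Benjamini-Hochberg adjustment) and -0.58 at 66 h against 18 h (SE 0.40, adjusted p = 0.51 by limma with Benjamini-Hochberg adjustment).

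pfkA encodes the phosphofructokinase that commits the sugar to glycolysis. It was listed at 17.7, 19.0 and 39.9 FPKM at 18 h, 51.5, 56.0 and 42.9 at 24 h, 20.6, 24.95 and 15.5 at 42 h, and 71.95 and 42.7 at 66 h. The 24 h and 66 h libraries thus lay above all libraries of 18 and 42 h. The reads were 3, 3 and 6 at 18 h, 8, 8 and 6 at 24 h, 4, 5 and 3 at 42 h, and 16 and 9 at 66 h. None of these differences passed the test across all genes. The log2 fold change was 1.04 at 24 h against 18 h (SE 0.55, adjusted p = 0.502 by limma with Benjamini-Hochberg adjustment), -1.28 at 42 h against 24 h (SE 0.55, adjusted p = 0.26) and 1.43 at 66 h against 42 h (SE 0.61, adjusted p = 0.717).

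The aldolase and the triose-phosphate isomerase, which make and equilibrate the triose phosphates, varied widely between libraries of 1 phase. fbaA ranged over 14.75 to 105 FPKM at 18 h, 57.1 to 93.2 at 24 h, 33.4 to 115 at 42 h, and 69.9 to 73.8 at 66 h, from 1 to 10 reads. tpiA had 96.4, 104 and 0 FPKM at 18 h, 126, 22.8 and 0 at 24 h, 0, 16.4 and 16.9 at 42 h, and 14.7 and 62.1 at 66 h. It had 0 or 1 read in 7 of 11 libraries, and in the 3 libraries with none a count of 0 allows up to 50.6 to 70.0 FPKM. Both genes overlapped between the times in all 5 comparisons. tpiA had the widest error of the pathway, with an SE of 2.16 for the log2 fold change at 24 h against 18 h.

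In the lower part, gpdA, whose product carries out the oxidation step that makes NADH, varied least. It stood at 451, 409 and 459 FPKM at 18 h, 568, 401 and 324 at 24 h, 370.15, 370.5 and 407 at 42 h, and 408 in both libraries at 66 h, from 19 to 38 reads each. No comparison called it. The 95% intervals of its log2 fold changes ran from -0.55 to 0.42 at 24 h against 18 h, -0.62 to 0.35 at 42 h against 24 h, -0.45 to 0.64 at 66 h against 42 h, -0.68 to 0.28 at 42 h against 18 h and -0.65 to 0.44 at 66 h against 18 h. Changes within these bounds are compatible with the values.

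pgkA, which makes the first ATP of the lower part, had 78.7, 60.4 and 88.7 FPKM at 18 h, 36.8, 26.7 and 27.3 at 24 h, 49.3, 66.8 and 39.4 at 42 h, and 77.2 and 36.2 at 66 h. The 24 h libraries were below all of 18 h and all of 42 h, on 3, 2 and 2 reads against 7, 5 and 7 at 18 h. The log2 fold change at 24 h against 18 h was -1.30 (SE 0.47), close in size to that of pkiA, but it did not pass the test (adjusted p = 0.279 by limma with Benjamini-Hochberg adjustment).

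Enolase, which forms phosphoenolpyruvate, stood at 160.4, 160.7 and 277 FPKM at 18 h, 152, 266 and 233 at 24 h, 46.8, 145 and 103 at 42 h, and 65.2 and 120.5 at 66 h. In FPKM, all 5 libraries of 42 and 66 h were below all 6 libraries of 18 and 24 h. As a share of the summed FPKM, 42 h replicate 2 (0.0148%, 16 reads) was above 24 h replicate 1 (0.0141%, 13 reads). The log2 fold change was -1.11 at 42 h against 18 h (SE 0.47, adjusted p = 0.23 by limma with Benjamini-Hochberg adjustment), -1.24 at 42 h against 24 h (SE 0.47, adjusted p = 0.197) and -1.11 at 66 h against 18 h (SE 0.52, adjusted p = 0.291). None of these passed the test, and the F test over the 4 times gave an adjusted p of 0.221 in limma.

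pkiA was listed at 1912, 2404 and 1446 FPKM at 18 h, 830.4, 694 and 805 at 24 h, 1442, 1426 and 1216 at 42 h, and 1364 and 1469 at 66 h. All 3 libraries of 24 h lay below the 8 others, and those of 18 h spread most. Its rank among the genes of a library was 213 to 273 at 24 h and 70 to 123 at the other times. At 24 h it averaged 776 ± 72.7 FPKM against 1921 ± 479 at 18 h (SD, n = 3 each). It fell by 1.28 on the log2 scale, with an SE of 0.18 and a 95% interval of -1.68 to -0.88 (limma, Benjamini-Hochberg adjusted p = 0.00541). Whether fewer hyphae held the transcript or each held less cannot be told apart in bulk RNA, and FPKM is relative to the other transcripts of a library.

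At 42 h pkiA averaged 1361 ± 126 FPKM against 776 ± 72.7 at 24 h, and it rose by 0.81 in log2 (SE 0.18, 95% interval 0.41 to 1.21, limma, Benjamini-Hochberg adjusted p = 0.0292). Leaving out 1 library ended this call in 6 fits, with an adjusted p of 0.0509 without 18 h replicate 1, 0.104 or 0.0698 without 24 h replicate 2 or 3, and 0.1, 0.0958 or 0.0511 without 42 h replicate 1, 2 or 3, while the fold change stayed between 0.73 and 0.89 in these fits. At 66 h it averaged 1416 ± 74.0 FPKM (n = 2), 0.06 in log2 from 42 h with an interval of -0.38 to 0.50. Against 18 h it was at -0.47 in log2 at 42 h (SE 0.18, adjusted p = 0.182 by limma with Benjamini-Hochberg adjustment) and -0.41 at 66 h (SE 0.20, adjusted p = 0.325), and neither passed the test. The 42 h value was called without 18 h replicate 3 (-0.66 in log2, adjusted p = 0.0496). Over all 4 times the F test gave an adjusted p of 0.00601 for pkiA. With a variance that does not depend on the mean level, pkiA was not called at 24 h against 18 h (adjusted p = 0.325), at 42 h against 24 h (0.378) or in the F test (0.301). With only the 18 and 24 h libraries in the fit, its adjusted p at 24 h against 18 h was 0.0518.

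**Figure D2:**
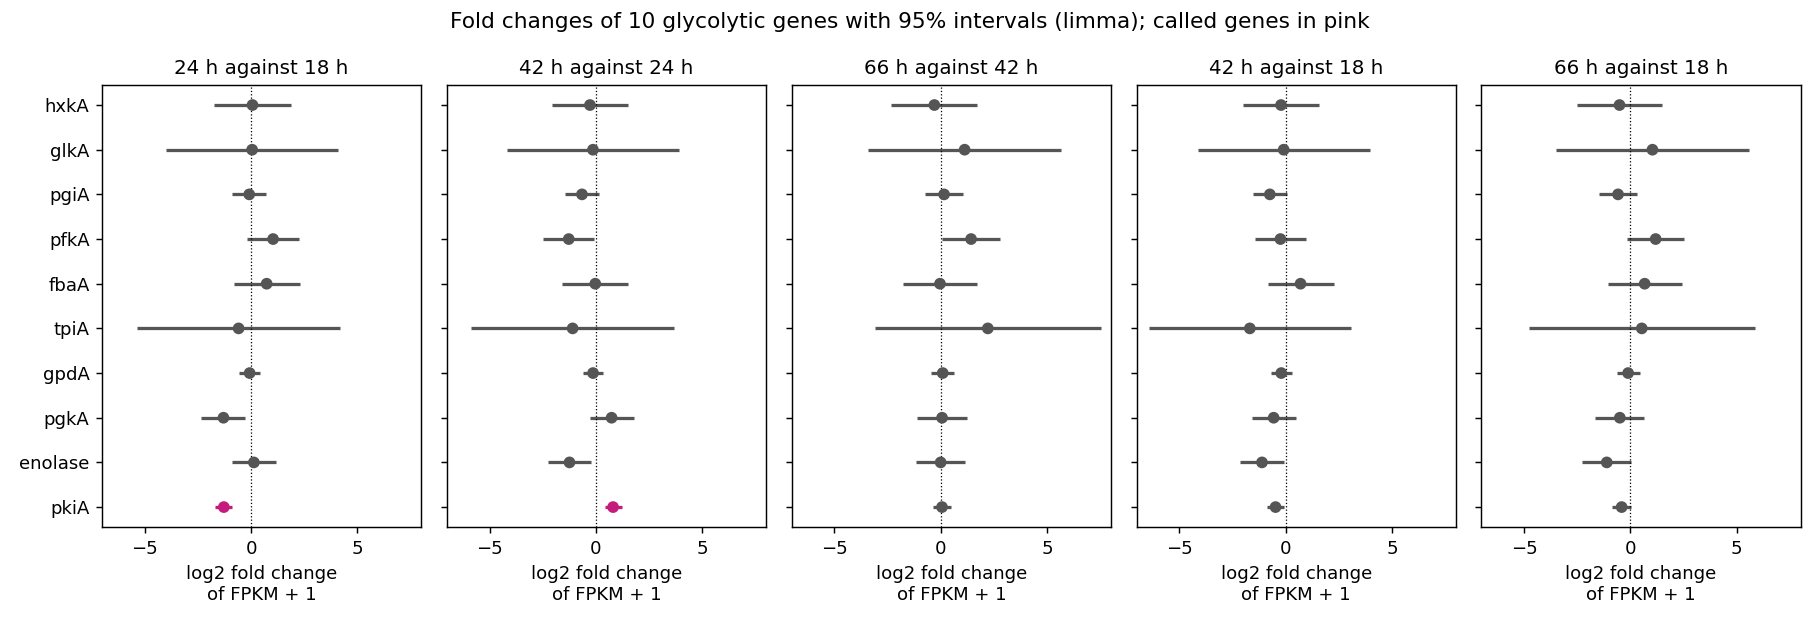
Log2 fold changes of FPKM + 1 (horizontal axes) of the 10 genes in the 5 comparisons of a later with an earlier time, with 95% intervals from limma over all 11 libraries. The 2 called values, pkiA at 24 h against 18 h (-1.28) and at 42 h against 24 h (0.81), are in pink, and the intervals of glkA and tpiA are the widest.

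Counted over the pathway, 1 of 10 genes fell at 24 h against 18 h, where 1.5% of the 8693 genes tested were called in either direction and 0.909% were lower at 24 h. At 42 h against 24 h 1 of 10 rose, with 4.66% of all genes called and 1.86% higher at 42 h. limma called 0 of 10 at 66 h against 42 h (1 at an unadjusted p under 0.05, 0.426% of all genes called). It called 0 at 42 h against 18 h (2 at an unadjusted p under 0.05, 6% of all genes called) and 0 at 66 h against 18 h (0 at an unadjusted p under 0.05, 6.04% of all genes called). At an unadjusted p under 0.05 in limma there were 2 of 10 at 24 h against 18 h and 3 at 42 h against 24 h. The shares of all genes use the adjusted p, and no share at the unadjusted p was counted to set beside these numbers. The F test called 1 of 10 at an adjusted p under 0.05, against 8.03% of all genes. Among the 2933 genes that averaged 30 FPKM or more, 3.44% were called at 24 h against 18 h, 11.7% at 42 h against 24 h, 0.409% at 66 h against 42 h, 14.8% both at 42 h and at 66 h against 18 h, and 19.4% in the F test. The call in each of these tests is that of pkiA, so the counts describe a single gene and not the pathway as a whole.

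The median log2 fold change of the 10 genes was -0.01 at 24 h against 18 h, with 5 above and 5 below 0, beside 0.04 over all genes tested. It was -0.21 at 42 h against 24 h (2 above 0, all genes -0.01), 0.08 at 66 h against 42 h (7 above 0, all genes 0.00), -0.36 at 42 h against 18 h (1 above 0, all genes -0.01) and -0.26 at 66 h against 18 h (4 above 0, all genes 0.00). Over the genes that averaged 30 FPKM or more these medians were 0.12, -0.11, 0.00, -0.11 and -0.10 in the same order. For genes with libraries at 0 the fitted value can go against the mean FPKM. glkA at 66 h against 42 h had a fitted value of 1.13 in log2 with means of 14.8 FPKM at 66 h and 16.1 FPKM at 42 h, and tpiA at 66 h against 18 h had 0.54 with means of 38.4 FPKM at 66 h and 66.8 FPKM at 18 h. By mean FPKM, 3, 4, 6, 1 and 2 of the 10 genes were higher at the later time, in the order of comparisons above. The comparisons share libraries and are not independent. Values of the later and the earlier time did not overlap for 3 of 10 genes at 24 h against 18 h (13.2% of all genes), 4 at 42 h against 24 h (19.7%), 2 at 66 h against 42 h (18.2%), 4 at 42 h against 18 h (21.7%) and 4 at 66 h against 18 h (30.6%). Of the 10 genes, 8 averaged 30 FPKM or more, and among all genes at that level the shares without overlap were 24.8%, 38.2%, 27.7%, 41.6% and 53.4% in the same order. A gap between the values of a few libraries was therefore common in this series. The counts without overlap are in FPKM, whose sum was lower at 42 and 66 h. As a share of the summed FPKM, pgiA and gpdA at 42 and 66 h overlapped with 18 h. So did pkiA at 42 h (0.148% in replicate 1, against 0.132% in 18 h replicate 3). Overlap by share was not counted over all genes.

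As a share of all transcripts, the 10 genes were lowest at 24 h. They took 0.296%, 0.328% and 0.236% of the summed FPKM at 18 h, 0.197%, 0.162% and 0.163% at 24 h, 0.228%, 0.238% and 0.205% at 42 h, and 0.229% and 0.253% at 66 h. All 3 libraries of 24 h lay below the other 8. pkiA made up 62.2% ± 6.57 of this sum at 18 h, 41.2% ± 3.72 at 24 h, and then 62.1% ± 2.38 at 42 h and 60.8% ± 1.13 at 66 h (SD, n = 3, 3, 3 and 2). Without pkiA the other 9 genes summed to 1138 ± 68.4 FPKM at 18 h and 1112 ± 159.7 FPKM at 24 h, and to 828 ± 74.3 at 42 h and 915 ± 90.8 at 66 h, so that the low at 24 h was that of pkiA. In FPKM, the sum of these 9 genes was below all 18 and 24 h libraries in all 3 libraries of 42 h and 1 of 2 of 66 h. As a share of the summed FPKM, which was lower at 42 and 66 h, these times overlapped with 24 h. They lay below all of 18 h, at 66 h only narrowly. The share of the 9 genes was 0.1014% to 0.1147% at 18 h and 0.0887% to 0.119% at 24 h. It was 0.0801% to 0.0929% at 42 h and 0.0878% to 0.1010% at 66 h.

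Both parts of the pathway had lower mean sums at 42 and 66 h than at the earlier times. The 6 upper genes summed to 423 ± 108 FPKM at 18 h and 434 ± 79.4 FPKM at 24 h, and to 296 ± 47.7 at 42 h and 357 ± 80.6 at 66 h. The 3 lower genes other than pkiA averaged 715, 678, 532 and 558 FPKM in sum at these times, with an SD of 86.7 at 24 h, 59.8 at 42 h and 10.2 at 66 h, and a range of 630 to 825 FPKM at 18 h. These sums are given as values, with no test.

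Within a library, a ratio of 2 genes does not depend on how libraries are scaled. pkiA over gpdA, a ratio chosen after the values had been seen, was 4.25, 5.88 and 3.15 at 18 h, 1.46, 1.73 and 2.48 at 24 h, 3.90, 3.85 and 2.99 at 42 h, and 3.34 and 3.60 at 66 h. It was lowest in the 3 libraries of 24 h, and those of 18, 42 and 66 h overlapped. Enolase over gpdA averaged 0.451 ± 0.133 at 18 h and 0.551 ± 0.247 at 24 h. It averaged 0.257 ± 0.133 at 42 h and 0.228 ± 0.0958 at 66 h. Its values at 66 h lay below all of 18 h, and those of every other pair of times overlapped. At 42 h against 18 h, 42 h replicate 2 (0.392) was above 18 h replicate 1 (0.356).

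**Figure D3:**
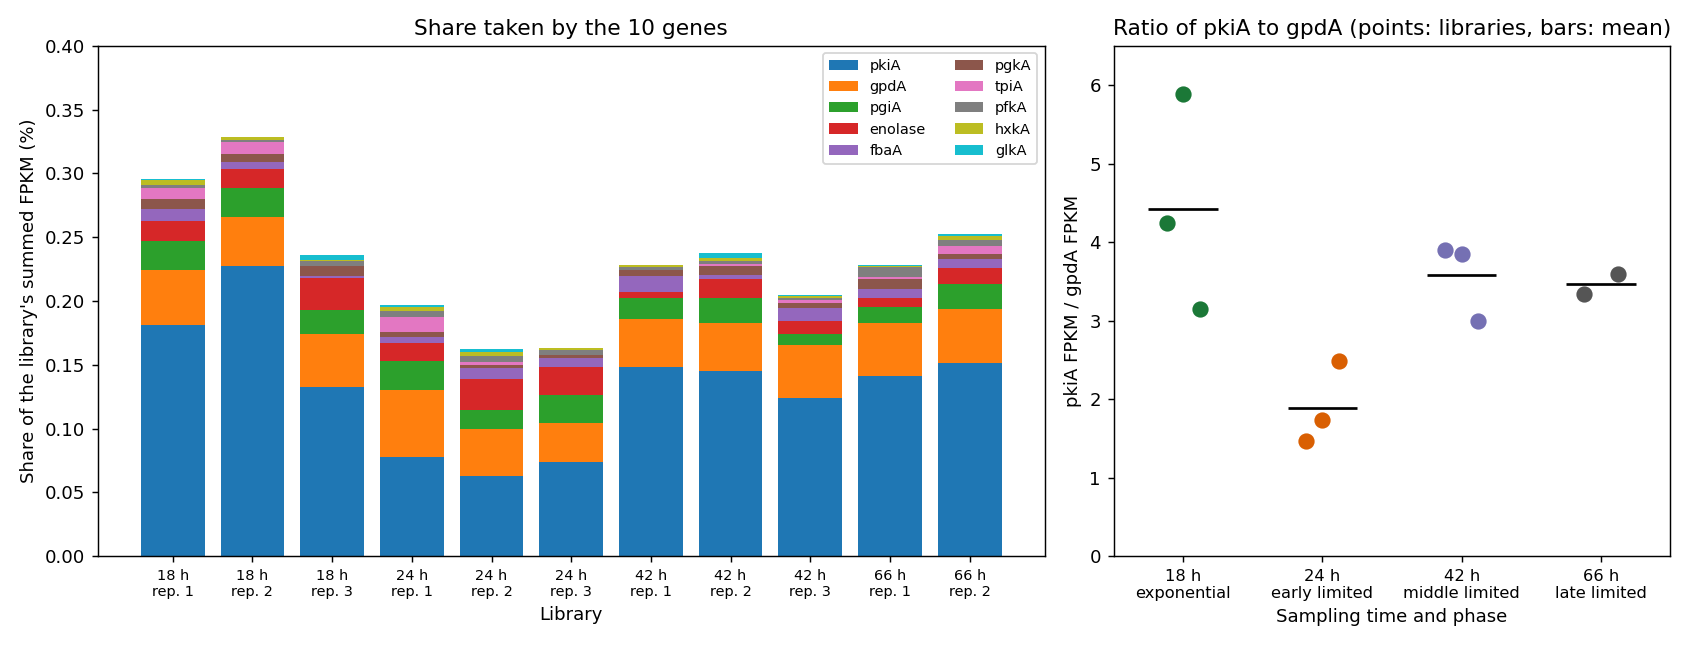
Left, the share of each library's summed FPKM in percent taken by the 10 genes, stacked by gene with 1 bar per library, and right, the ratio of pkiA to gpdA in FPKM, with a point per library and a bar at the mean of each time. The 24 h libraries have the lowest bars (0.162% to 0.197%) and the lowest ratios (1.46 to 2.48).

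The reads recovered for 9 of the genes show how far counting alone limits the comparisons. Over all 11 libraries there were 336 reads of gpdA, 251 of pgiA, 158 of enolase, 71 of pfkA, 64 of fbaA, 55 of pgkA, 27 of hxkA, 24 of tpiA and 19 of glkA. 1 read was worth 4.49 FPKM (pfkA) to 14.7 FPKM (tpiA) in the deepest library and 7.13 to 23.3 FPKM for the same genes in the shallowest. The SE of the log2 fold change at 24 h against 18 h was 0.22 for gpdA, 0.36 for pgiA and 0.47 for both enolase and pgkA, but 0.82 for hxkA and 1.83 for glkA. Within the phases, the variance of the reads was 0.43 times (pgkA), 0.60 times (pfkA), 0.70 times (gpdA) and 0.85 times (hxkA) what counting alone gives. It was 1.37 times for fbaA, 1.54 times for pgiA, 1.99 times for enolase, 2.05 times for glkA and 2.21 times for tpiA, each on 7 degrees of freedom.

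**Figure D4:**
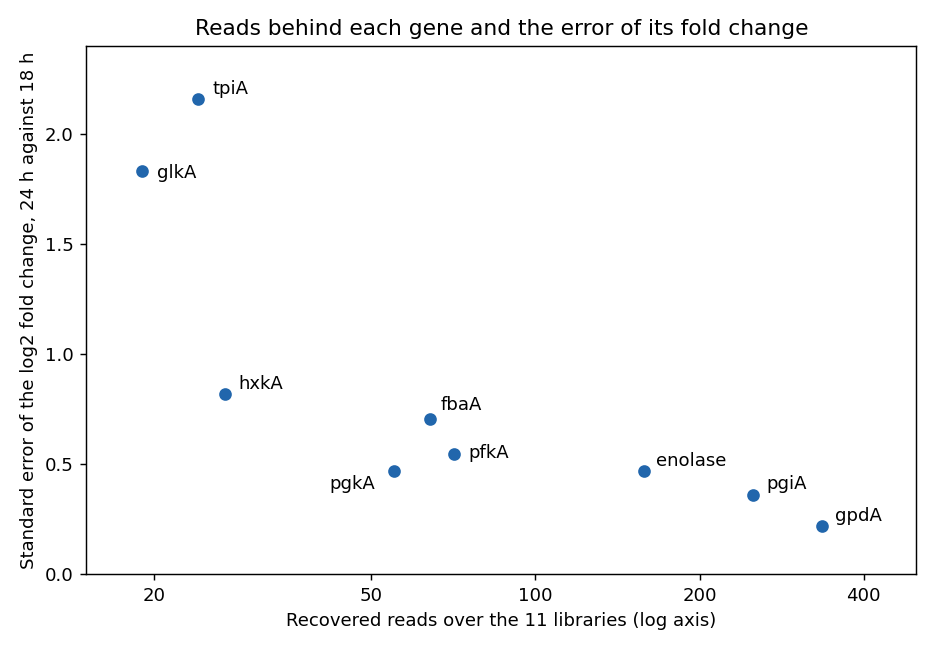
Standard error of the log2 fold change at 24 h against 18 h (vertical axis, limma) against the reads recovered over the 11 libraries (horizontal log axis), with 1 point for each of the 9 genes whose reads could be recovered. The error is 0.22 for gpdA with 336 reads, and 1.83 and 2.16 for glkA and tpiA with 19 and 24 reads.

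Reads were also summed over the libraries of a phase and compared per unit of depth, with exact 95% binomial intervals that cover counting error only and are not adjusted for the 45 comparisons of 9 genes. pfkA had 25 reads at 66 h against 12 at 42 h, a ratio per depth of 2.83 (1.37 to 6.17), and 12 reads at 42 h against 22 at 24 h, a ratio of 0.407 (0.184 to 0.859). Enolase had 32 reads at 42 h against 52 at 24 h, a ratio of 0.459 (0.286 to 0.727), and 22 at 66 h against 52 at 18 h, a ratio of 0.467 (0.270 to 0.783). The intervals take no account of spread between libraries beyond counting, and the variance ratios given above were over 1 for enolase, pgiA and tpiA.

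For pgiA the ratio was 0.634 at 42 h against 18 h (0.445 to 0.900, on 60 against 77 reads), and for pgkA it was 0.402 at 24 h against 18 h (0.143 to 0.998, on 7 against 19 reads). tpiA had 2 reads at 42 h against 10 at 18 h, a ratio of 0.163 (0.0173 to 0.764). gpdA had ratios of 0.991 (0.723 to 1.36) at 24 h against 18 h and 0.869 (0.643 to 1.18) at 42 h against 18 h. In all, 11 of the 45 intervals excluded 1, in the genes pgiA, pfkA, tpiA, pgkA and enolase, and none of these differences was called by limma across all genes. Such intervals were not computed over all genes, so this count has no background share beside it and is not read as a result.

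Genes of reactions that adjoin glycolysis were searched by symbol, and 4 of 30 symbols were present. These were pyc (An04g02090), whose product pyruvate carboxylase makes oxaloacetate from pyruvate, gsdA (An02g12140), which encodes the glucose-6-phosphate dehydrogenase at the entry of the pentose phosphate pathway, and tpsA (An08g10510) and tpsB (An07g08710), which encode trehalose-6-phosphate synthases. tpsA had 1 read in all 11 libraries and was not tested. limma called 0 of the other 3 in each of the 5 comparisons, with pyc at an unadjusted p of 0.0466 at 66 h against 18 h. pyc stood at 38.5, 53.6 and 56.4 FPKM at 18 h, 58.8, 68.6 and 37.3 at 24 h, 13.5, 35.8 and 37.0 at 42 h, and 23.5 and 12.4 at 66 h. In FPKM, its 5 libraries of 42 and 66 h lay below the 6 of 18 and 24 h, as those of enolase did. The gap for pyc was small, with 37.00 at 42 h replicate 3 and 37.32 at 24 h replicate 3. As a share of the summed FPKM, 42 h replicates 3 (0.00377%) and 2 (0.00364%) were above 24 h replicate 3 (0.00344%). By share, neither pyc nor enolase kept this separation. For pyc the log2 fold change at 66 h against 18 h was -1.46, with an SE of 0.65 and an adjusted p of 0.256 in limma. gsdA had 0 to 5 reads and tpsB 0 to 4 reads per library.

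The genes of most similar pattern were sought among 570 other genes that averaged 300 FPKM or more, by Pearson's r over the 11 libraries with the mean centred log2 value of the 10 glycolytic genes. They were An03g02360 (r = 0.76), An11g05080 (0.71), An02g08480 (0.71) and An05g00750 (0.61), loci without a symbol in the RefSeq table. That mean profile followed tpiA most (r = 0.87), whose values rest on 0 to 6 reads, then hxkA (0.69) and gpdA (0.65), and pkiA hardly (0.09). The 11 libraries share phases and depths, and no p is given.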

How the data were processed

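RNA of 11 libraries was sequenced. The authors deposited FPKM values, 1 per gene and library, which per the submitters' processing notes were made with RSEM. The sources used here do not give its version, the aligner, the build or the annotation, and no scaling between libraries is recorded. FPKM is relative to the mapped total, so a few abundant transcripts can shift all other values.

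Libraries were grouped by the phase in the labels. log2(FPKM + 1) was fitted with limma 3.58.1 in R 4.3.3, with a mean per phase over all 11 libraries and a variance trend on the mean level, for the 8693 genes that reached an FPKM of 1 in 2 or more libraries. Fold changes on this scale understate those of low genes above 0, and for genes with libraries at 0 they can be larger than the change of the mean FPKM or opposite to it. P-values were Benjamini-Hochberg adjusted over these genes, and calls use an adjusted p under 0.05. The fit was tested on simulated data.

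Reads were recovered by searching, per gene, the largest step of which all depth-scaled values were whole multiples within 0.05 read. Steps were sought for 6771 genes above 0 in at least 4 libraries, and intervals came from scipy 1.17.1. Intervals and limits of a count of 0 (3 counts) cover counting error only. No 2 libraries held identical values. A permutation test planned for the summed share is not given, since the genes were chosen with results known.

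All 10 genes were named, with every adjoining gene carrying a listed symbol and the 4 genes of most similar pattern. The genes, lists and tests were chosen with earlier results of these data known. RefSeq assembly ASM285v2 was used for names only (10417 of 10445 loci matched), since the build of the values is not given. Alternatives were 2 other pseudocounts, 2 filters, 3 scalings, no variance trend, library weights, a replicate block, each library left out and the 2 phases alone.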

Additional observations from a re-analysis of the deposited data

How the results depend on the processing

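Over 22 other settings of the fit, the 9 genes other than pkiA were called in 0 of 990 values, with a lowest limma adjusted p of 0.127, and 64 of these uncalled values changed sign. pkiA at 24 h against 18 h kept its call in 20 of 22 settings (log2 fold change -1.47 to -1.10), and at 42 h against 24 h in 15 of 22 (0.73 to 1.01). The number of genes called became 0 in place of 1 without a variance trend in both of these comparisons and in the F test, and at 24 h against 18 h with only the libraries of the 2 phases. Leaving out 1 library gave 1 in all fits at 24 h against 18 h, 0 to 1 at 42 h against 24 h and 0 to 1 at 42 h against 18 h, as given for pkiA. With the replicate number as a block, the count stayed 1 in each of the first 2 comparisons and the F test and 0 in the others, with an adjusted p for pkiA of 0.0149 and 0.0439. Same-numbered libraries did not visibly deviate together (r of -0.07 to 0.05 over 15 pairs and 2933 genes). Pairs of unlike number gave -0.06 to 0.06 over 30 pairs. With few reads behind most values, counting noise could hide a pairing, so these r do not exclude that the numbers pair the samples.

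Without the 10 most abundant genes in the sum, the share of the glycolytic genes was 0.359%, 0.213%, 0.275% and 0.297% in order of time, in place of 0.287%, 0.174%, 0.224% and 0.241%, because the sum is smaller. Without 1 library of a phase the share was 0.266% to 0.312% at 18 h, 0.163% to 0.18% at 24 h, then 0.216% to 0.233% at 42 h and 0.229% to 0.253% at 66 h. All genes called numbered 40 to 168 (130 as reported) at 24 h against 18 h, 132 to 496 (405) at 42 h against 24 h, 0 to 95 (37) at 66 h against 42 h, 249 to 608 (522) at 42 h against 18 h and 220 to 787 (525) at 66 h against 18 h. The 0 was with only the libraries of the 2 phases. No scaling moved the median of all genes by over 0.04 in log2, but the glycolytic genes shifted by a median of up to 0.15 (42 h against 24 h, equal FPKM sums). Depth is one limit, with 71 reads or fewer for 6 of the 10 genes over all 11 libraries, beside 2 or 3 libraries per phase. The counting intervals were added after the data had been seen.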
